A study of Mus musculus with 18 samples.

Results

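Thalamic and cerebellar marker genes were followed through brainstem, hippocampus and cortex of Nrf2 knockout (KO) and wild-type (WT) mice, to describe what the tissue labelled brainstem contained. The set had 10 members, 6 thalamic genes (Gbx2, Slitrk6, Prkcd, Tcf7l2, Tnnt1 and Slc17a6) and 4 cerebellar genes (En2, Cbln1, Zic1 and Crtam), out of 22671 genes tested. They were chosen by name, and every probe annotated to them was read, which gave 16 probes, 10 thalamic and 6 cerebellar, all of which passed the filter on dim probes. None of the members is a marker of the habenula alone, although Tcf7l2 and Slc17a6 are also active there, so a separate habenula list was set beside them.

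The samples were male 129SV mice without any stress treatment, either lacking Nrf2 (gene symbol Nfe2l2, a transcription factor of the antioxidant response) or wild type. The 6 groups were KO and WT brainstem, KO and WT hippocampus, and KO and WT cortex, with 3 arrays each, 18 in all. The design text speaks of independent RNAs, and neither the animals' age nor how tissue was dissected or whether RNAs of different regions came from one animal is given in the sources used here, so a p-value covers only array-to-array spread, which may be technical. Total RNA was hybridised to 1-colour Agilent arrays. A level is the log2 of a probe's processed intensity minus the array's 75th percentile, so that 0 is the brightness of the array's 75th percentile probe, and levels of different genes were not set against each other. A gene was called in a comparison when limma gave an adjusted p under 0.05 over all genes, and values after ± give the standard error.

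The share of spots well above background ran from 63.7% to 73.2% per array, with 0 saturated. Nfe2l2 was lower in KO than in WT tissue in brainstem (log2 difference -7.50 ± 0.54), hippocampus (-5.60 ± 0.54) and cortex (-8.80 ± 0.54), and was called in all 3 regions. It was well above background on 1 of 3 KO brainstem, 3 of 3 KO hippocampus and 0 of 3 KO cortex arrays. Precision was set by having 3 arrays in a group.

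The thalamus is the relay between sensory and subcortical structures and the cortex, and its relay neurons are glutamatergic. They develop from the caudal diencephalon, next to the habenula, under transcription factors such as Gbx2 and Tcf7l2, and use the vesicular transporter VGLUT2, encoded by Slc17a6, where most neurons of cortex and hippocampus use VGLUT1. The cerebellum arises from the anterior hindbrain and contains granule cells, marked by genes such as Gabra6 and Cbln3, and Purkinje cells, marked by genes such as Pcp2. Several members are not exclusive to either structure: Slc17a6 is widespread in midbrain and hindbrain, En2 is also a midbrain gene, and Cbln1 and Zic1 are active in neurons outside the cerebellum.

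All 10 members were higher in brainstem than in cortex and than in hippocampus, in KO as well as in WT mice. In WT mice the measured fold over cortex was 8.12 to 17.5 for the thalamic genes and 3.81 to 11.3 for the cerebellar genes, and over hippocampus it was 7.47 to 41.7 and 5.82 to 8.15. In KO mice the fold over cortex was 7.94 to 32.5 for the thalamic and 4.28 to 10 for the cerebellar genes, and over hippocampus 6.03 to 53.2 and 3.64 to 8.11. The highest thalamic fold in all 4 comparisons was that of Gbx2, which was near background outside brainstem, and it was smaller with another background correction. Of all genes tested, 18.9% were called higher in KO brainstem than in KO cortex and 21.7% than in KO hippocampus, and in WT mice these shares were 19.1% and 23%. Every member's brainstem arrays lay above all its cortex and hippocampus arrays. The groups failed to overlap with brainstem on the higher side in 21.1% of all genes against cortex and in 25.5% against hippocampus in KO mice, and in 28.4% and 30.6% in WT mice. The median log2 difference from WT cortex was 3.52 for the thalamic and 3.07 for the cerebellar genes, beside 0.03 for all genes tested. From WT hippocampus it was 3.61 and 2.98, beside 0.012 for all genes. The comparisons with cortex and with hippocampus use the same brainstem arrays.

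**Figure D1:**
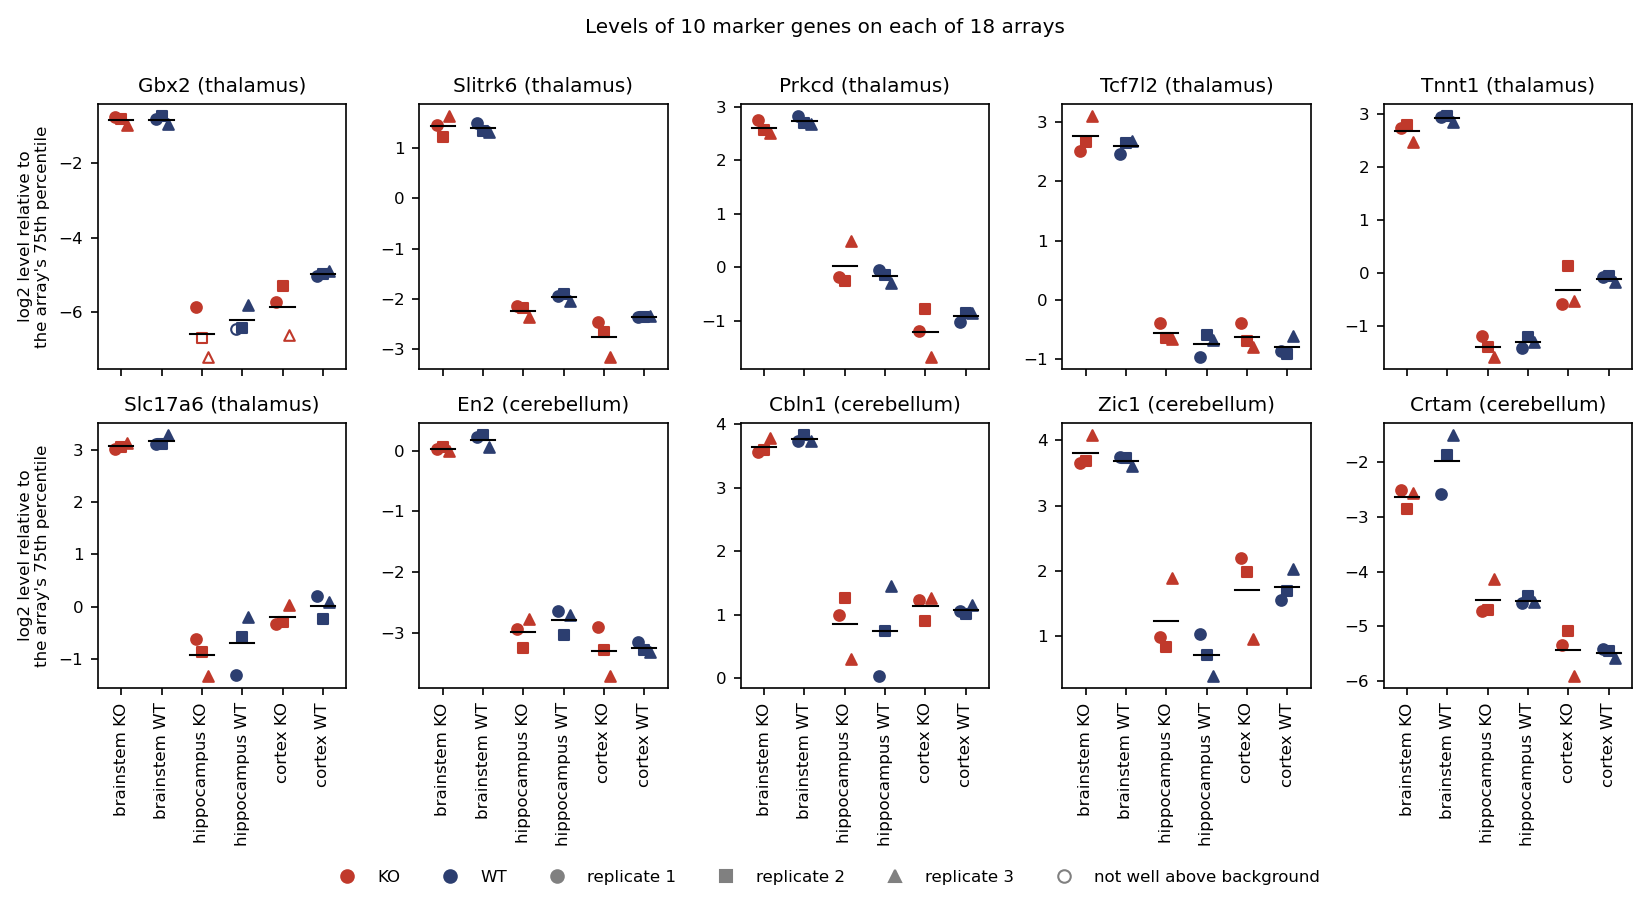
Level of each of the 10 genes on each of the 18 arrays (y axis, log2 processed intensity relative to the array's 75th percentile) by region and genotype; red symbols are KO and blue symbols WT, the shape gives the replicate, open symbols are not well above background and bars are group means. The brainstem arrays lie above all hippocampus and cortex arrays in each panel, and the KO and WT means of a region lie close together beside that gap.

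Gbx2 is a homeobox factor needed for the thalamus to form. It had levels of -0.75, -0.82 and -0.97 in KO brainstem and -0.82, -0.73 and -0.95 in WT brainstem. In hippocampus it had -5.86, -6.68 and -7.19 on KO arrays and -6.45, -6.41 and -5.79 on WT arrays, and in cortex -5.72, -5.28 and -6.60 on KO arrays and -5.02, -4.97 and -4.90 on WT arrays. The 6 brainstem arrays were close together and far above the rest. In WT mice brainstem exceeded cortex by 4.13 ± 0.32 (adjusted p = 1.61e-07) and hippocampus by 5.38 ± 0.32 (adjusted p = 8.79e-09). With normexp background correction, an alternative on the median signals, these were 2.55 and 2.90. In KO mice the differences were 5.03 from cortex and 5.73 from hippocampus, and with normexp 2.67 and 2.84. Outside brainstem Gbx2 was near background: it was well above it on 1 of 3 KO and 2 of 3 WT hippocampus arrays and on 2 of 3 KO and 3 of 3 WT cortex arrays.

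Slitrk6, a synaptic adhesion protein of sensory relay pathways, had levels of 1.46, 1.22 and 1.64 in KO brainstem and 1.5, 1.35 and 1.33 in WT brainstem. Its levels were -2.15, -2.19 and -2.36 in KO hippocampus and -1.95, -1.90 and -2.05 in WT hippocampus. In cortex they were -2.46, -2.66 and -3.15 on KO arrays and -2.36, -2.36 and -2.34 on WT arrays. Brainstem was set apart by a gap larger than the range within any group, 3.75 ± 0.15 over WT cortex (adjusted p = 3.52e-10) and 3.36 ± 0.15 over WT hippocampus (adjusted p = 6.21e-10).

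Prkcd encodes protein kinase C delta, an enzyme rich in thalamic relay neurons. It had levels of 2.75, 2.57 and 2.52 in KO brainstem and 2.83, 2.70 and 2.69 in WT brainstem, against -1.19, -0.77 and -1.67 in KO cortex and -1.03, -0.85 and -0.86 in WT cortex. In hippocampus it had -0.18, -0.26 and 0.50 on KO arrays and -0.041, -0.14 and -0.30 on WT arrays, where KO replicate 3 was the highest. The hippocampus arrays lay between brainstem and cortex in both genotypes. The WT difference was 3.65 ± 0.21 from cortex (adjusted p = 7.59e-09) and 2.90 ± 0.21 from hippocampus (adjusted p = 5.94e-08).

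Tcf7l2, a Wnt pathway transcription factor kept on in thalamic and habenular neurons, had levels of 2.51, 2.67 and 3.1 in KO brainstem and 2.46, 2.65 and 2.68 in WT brainstem. In hippocampus and cortex its levels lay between -0.96 and -0.39 on all 12 arrays. The WT brainstem excess was 3.39 ± 0.16 over cortex (adjusted p = 1.47e-09) and 3.34 ± 0.16 over hippocampus (adjusted p = 1.29e-09). Hippocampus and cortex differed by 0.059 ± 0.16 in WT mice, less than that error. Its 3 probes gave 3.39, 3.40 and 4.14 for the difference from WT cortex.

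Tnnt1, the slow skeletal muscle troponin T that is also transcribed in thalamic neurons, had levels of 2.73, 2.80 and 2.48 in KO brainstem and 2.95, 2.96 and 2.85 in WT brainstem. Cortex had -0.57, 0.13 and -0.52 on KO arrays and -0.074, -0.051 and -0.17 on WT arrays, and hippocampus had -1.18, -1.39 and -1.57 on KO arrays and -1.40, -1.20 and -1.29 on WT arrays. Tnnt1 had 3 separate steps, brainstem, cortex and hippocampus, in both genotypes. The WT difference was 3.02 ± 0.16 from cortex (adjusted p = 3.70e-09) and 4.22 ± 0.16 from hippocampus (adjusted p = 2.01e-10). Of 4 tested skeletal muscle genes, the troponin Tnni1 was called higher in WT brainstem than in WT cortex (1.28) and WT hippocampus (1.43), and its hippocampus mean was below cortex without a call (-0.15, adjusted p = 0.661). The other 3 were called lower in WT brainstem than in WT cortex, among them the actin gene Acta1 (-2.21) and the troponin Tnnc1 (-1.79).

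Slc17a6, the VGLUT2 transporter, had levels of 3.01, 3.05 and 3.13 in KO brainstem and 3.1, 3.11 and 3.28 in WT brainstem. Its levels were -0.61, -0.86 and -1.32 in KO hippocampus and -1.30, -0.58 and -0.19 in WT hippocampus, and -0.34, -0.29 and 0.029 in KO cortex and 0.21, -0.24 and 0.094 in WT cortex. WT brainstem exceeded WT cortex by 3.14 ± 0.23 (adjusted p = 1.17e-07) and WT hippocampus by 3.85 ± 0.23 (adjusted p = 1.17e-08). Its second probe gave 3.75 for the difference from WT cortex.

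Promoter sequences of 300 bases around the annotated start were at hand for 7 of the 10 members, from RefSeq with build GRCm38.p6, and 3 motifs were searched on both strands. Prkcd, Tcf7l2 and Slc17a6 each had an additional annotated start, whose promoter held no match. Members are counted by gene and the background by promoter, so a gene with more starts has more chances of a match. TAATTA, the core of many homeodomain sites, was in 1 member and in 5.3% of all 32851 promoters. CTTTGA, the core of TCF and LEF sites, was in 1 member, Prkcd, and in 16.0% of all promoters. TGACNNNGC, the core of the antioxidant response element that Nrf2 binds, was in 2 members, Slitrk6 and Tcf7l2, and in 12.4% of all promoters. A match is a run of letters and not a site. The promoters with an antioxidant core are shown because Nrf2 is the factor these mice lack, and that of Slc17a6 because it alone held the homeodomain core. Capitals mark the match, which for the antioxidant core is read on the opposite strand as GCNNNGTCA.
Slitrk6 (chr14:110755100-110755399, minus strand, match at -20 to -12 from the start): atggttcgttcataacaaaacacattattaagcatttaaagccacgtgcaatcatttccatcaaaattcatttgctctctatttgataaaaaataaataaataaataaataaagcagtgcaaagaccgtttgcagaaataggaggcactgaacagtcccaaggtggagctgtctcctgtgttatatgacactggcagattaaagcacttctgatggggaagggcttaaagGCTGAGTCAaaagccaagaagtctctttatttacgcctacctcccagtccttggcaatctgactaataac
Tcf7l2 (chr19:55741560-55741859, plus strand, match at 3 to 11): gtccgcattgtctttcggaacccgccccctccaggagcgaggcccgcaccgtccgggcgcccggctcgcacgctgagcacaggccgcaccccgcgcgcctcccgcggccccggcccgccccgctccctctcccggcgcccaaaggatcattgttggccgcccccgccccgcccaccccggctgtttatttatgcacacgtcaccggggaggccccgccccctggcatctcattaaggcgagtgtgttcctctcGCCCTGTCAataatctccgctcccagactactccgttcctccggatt
Slc17a6 (chr7:51624387-51624686, plus strand, match at -81 to -76): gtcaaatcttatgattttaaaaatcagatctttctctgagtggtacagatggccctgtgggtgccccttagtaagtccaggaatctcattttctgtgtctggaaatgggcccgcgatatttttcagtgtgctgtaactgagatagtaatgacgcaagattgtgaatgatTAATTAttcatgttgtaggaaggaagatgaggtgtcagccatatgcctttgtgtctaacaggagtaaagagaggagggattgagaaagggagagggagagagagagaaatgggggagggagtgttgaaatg
The base composition of these promoters differed, with 38.3% G or C for Slitrk6, 70.0% for Tcf7l2 and 43.0% for Slc17a6, beside a median of 52.7% over all promoters. Neither of the genes with the antioxidant core was called in any comparison of KO with WT.

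Among the cerebellar genes, En2, an engrailed homeobox factor of the midbrain and hindbrain border, had levels of 0.027, 0.069 and 0.0017 in KO brainstem and 0.23, 0.26 and 0.065 in WT brainstem. Hippocampus had -2.94, -3.25 and -2.78 on KO arrays and -2.65, -3.03 and -2.70 on WT arrays, and cortex had -2.90, -3.28 and -3.71 on KO arrays and -3.16, -3.29 and -3.32 on WT arrays. Hippocampus and cortex overlapped in KO mice and were far below brainstem in both genotypes. The WT difference was 3.45 ± 0.17 from cortex (adjusted p = 2.12e-09) and 2.98 ± 0.17 from hippocampus (adjusted p = 6.85e-09).

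Cbln1, a secreted synapse organiser that granule cells release onto Purkinje cells, had levels of 3.56, 3.60 and 3.79 in KO brainstem and 3.74, 3.83 and 3.74 in WT brainstem. Cortex was even, with 1.23, 0.90 and 1.27 on KO arrays and 1.06, 1.02 and 1.15 on WT arrays. Hippocampus was scattered, with 0.99, 1.27 and 0.30 on KO arrays and 0.04, 0.74 and 1.46 on WT arrays. WT brainstem exceeded WT cortex by 2.69 ± 0.28 (adjusted p = 3.40e-06) and WT hippocampus by 3.03 ± 0.28 (adjusted p = 7.75e-07), and its second probe gave 2.88 for the difference from cortex.

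Zic1, a zinc finger factor of granule cell progenitors and of several dorsal brain structures, showed the smallest gap between WT brainstem and WT cortex among the 10 genes, 1.93 ± 0.31 (adjusted p = 0.000191) by either of its probes. Its levels were 3.65, 3.68 and 4.08 in KO brainstem and 3.74, 3.73 and 3.60 in WT brainstem, against 2.19, 1.98 and 0.95 in KO cortex and 1.55, 1.69 and 2.03 in WT cortex. In hippocampus it had 0.98, 0.83 and 1.89 on KO arrays and 1.03, 0.71 and 0.39 on WT arrays. KO replicate 3 was the highest array in brainstem and in hippocampus and the lowest in cortex. WT brainstem exceeded WT hippocampus by 2.98 ± 0.31 (adjusted p = 2.39e-06).

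Crtam, an adhesion molecule first known from cytotoxic lymphocytes, had levels of -2.51, -2.86 and -2.57 in KO brainstem and -2.58, -1.88 and -1.51 in WT brainstem. The WT brainstem arrays were spread over a wide range, and replicate 1 lay at the level of the KO arrays. Hippocampus had -4.71, -4.70 and -4.13 on KO arrays and -4.58, -4.45 and -4.56 on WT arrays, and cortex had -5.33, -5.08 and -5.90 on KO arrays and -5.42, -5.44 and -5.58 on WT arrays. WT brainstem exceeded WT cortex by 3.49 ± 0.25 (adjusted p = 7.18e-08) and WT hippocampus by 2.54 ± 0.25 (adjusted p = 1.27e-06), and with normexp by 1.54 and 1.39. In KO mice the differences were 2.79 and 1.87, and with normexp 1.02 and 0.86. Of 8 genes listed as cytotoxic lymphocyte markers, 2 passed the filter: Nkg7 was called higher in WT brainstem than in WT cortex (0.82) and Cd3e was not (0.48), while Cd3g and Cd8a were not well above background on any array.

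**Figure D2:**
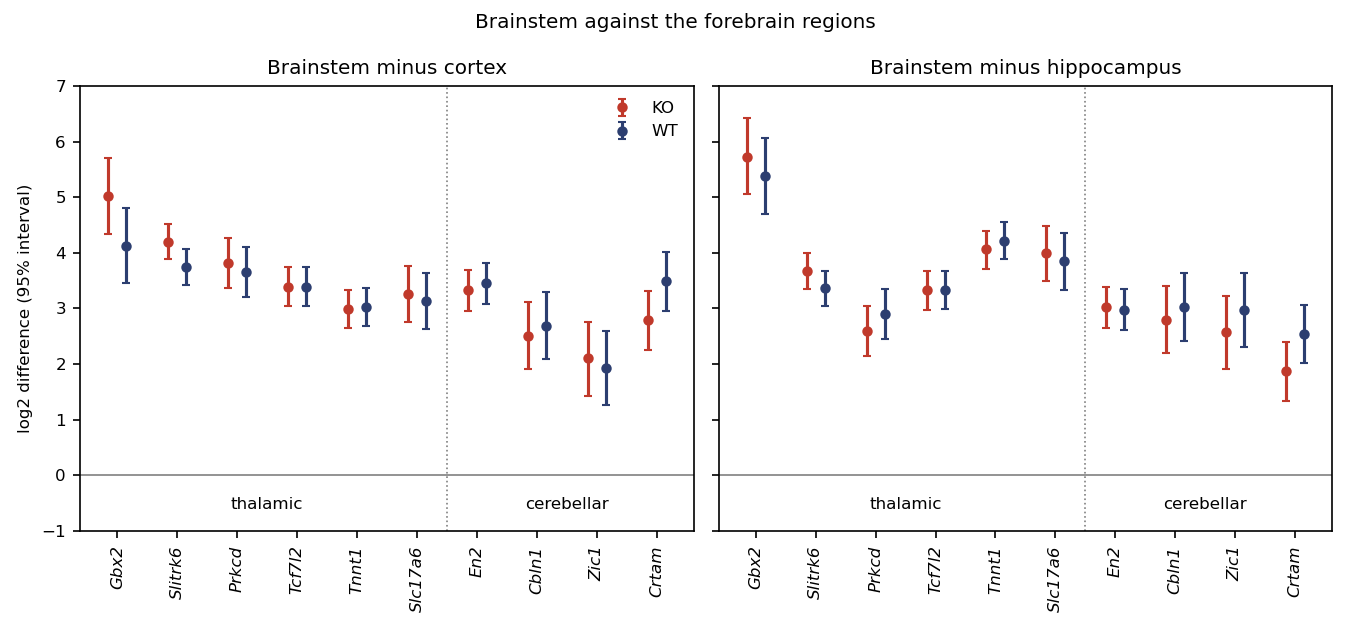
Log2 difference of brainstem from cortex (left) and from hippocampus (right) for each gene, with its 95% interval, in KO (red) and WT (blue) mice; thalamic genes stand left of the dotted line and cerebellar genes right of it. All 40 differences lie above 0, between 1.87 (Crtam, KO brainstem minus KO hippocampus) and 5.73 (Gbx2, KO brainstem minus KO hippocampus). With normexp these 2 were 0.86 and 2.84, and Gbx2 was well above background on 1 of 3 KO hippocampus arrays.

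Hippocampus and cortex, set against each other, divided the members. Their arrays shared no slide, so slide and region cannot be told apart in these differences. In WT mice 2 of the 10 were called higher in hippocampus, Prkcd (0.75 ± 0.21, adjusted p = 0.0225) and Crtam (0.95 ± 0.25, adjusted p = 0.0161), and 3 lower, Gbx2 (-1.25 ± 0.32, adjusted p = 0.0140), Tnnt1 (-1.20 ± 0.16, adjusted p = 0.000127) and Zic1 (-1.05 ± 0.31, adjusted p = 0.0312). In KO mice 3 were called higher, Prkcd (1.23 ± 0.21, adjusted p = 0.000885), Crtam (0.92 ± 0.25, adjusted p = 0.0192) and Slitrk6 (0.52 ± 0.15, adjusted p = 0.0259), and 2 lower, Tnnt1 (-1.07 ± 0.16, adjusted p = 0.000336) and Slc17a6 (-0.73 ± 0.23, adjusted p = 0.0470). Of all genes, 7.17% were called higher and 9.43% lower in KO mice, and 6.78% and 10.4% in WT mice. The number called was unstable: in WT mice it was 1, Tnnt1, without hippocampus WT replicate 2, and 3 without any one of cortex WT replicates 1, 2 and 3 or hippocampus WT replicate 1. In KO mice it was 3 without cortex KO replicate 3 or without hippocampus KO replicate 2 or 3. Tnnt1 remained called in both genotypes whichever array was left out, and Prkcd in KO mice.

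The order of the regions differed between members. In both genotypes brainstem came first for all 10. Gbx2, Tnnt1, Slc17a6, Cbln1 and Zic1 had a higher mean in cortex than in hippocampus, and Slitrk6, Prkcd, Tcf7l2, En2 and Crtam a higher mean in hippocampus, in KO as in WT mice. The difference between hippocampus and cortex was not called for Tcf7l2, En2 and Cbln1 in either genotype, nor for Gbx2 and Zic1 in KO mice or Slitrk6 and Slc17a6 in WT mice.

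Markers that the set did not include were all higher for thalamus and divided for cerebellum. The lists were chosen with earlier results of these data known, so they are no independent test. The rise was not particular to thalamic genes, since midbrain and most hindbrain genes, given below, were called higher too. All 12 other thalamic markers were called higher in WT brainstem than in WT cortex, with a median of 2.21, beside 0.03 over all genes, of which 19.1% were called higher and 16.6% lower. The homeobox factor Shox2 had levels of -2.49, -2.64 and -2.87 in WT brainstem and was not well above background on any WT cortex array, at least 15.1-fold higher (adjusted p = 1.79e-08). Lhx9, a LIM homeobox factor of caudal thalamus, differed by 5.03 ± 0.19 (adjusted p = 2.83e-10), but its hippocampus arrays, at -0.50, -1.01 and -0.11 in KO and -0.68, -0.80 and -0.84 in WT mice, were far above cortex. Of 7 tested habenula markers 5 were called higher and 1 lower. Gpr151, an orphan receptor of habenular neurons, was at least 7.04-fold and the nicotinic receptor subunit Chrna3 at least 1.59-fold higher in WT brainstem than in WT cortex, where neither was well above background. Nwd2 was the lower one (-0.94 ± 0.20, adjusted p = 0.00188). The median over the habenula list was 2.07 as measured and 0.67 with 3 genes set to their bounds. Against WT hippocampus, 3 of the 7 were called higher in WT brainstem and 0 lower, with a median of 0.69. Over all genes these shares were 23% and 18.5%. Gpr151 was well above background on all 3 WT hippocampus arrays. Shox2 and Chrna3 were not well above background on any hippocampus or cortex array and passed the filter only through brainstem. This favours a higher call, so their differences and the counts that include them are no test.

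Of 9 tested granule cell markers 5 were called higher and 1 lower in WT brainstem than in WT cortex, with a median of 0.62. Over all genes these shares were 19.1% and 16.6%, which also stand beside the Purkinje cell counts below. The lower counts in both lists, 1 of 9 and 2 of 8, were near their share. Gabra6, the GABA-A receptor subunit of granule cells, was at least 13.8-fold higher (adjusted p = 8.66e-05) and Cbln3, the granule cell partner of Cbln1, at least 2.02-fold (adjusted p = 0.000119), both not well above background on any WT cortex array. Both passed the filter only through brainstem, which favours a higher call. Their differences, and the list count that includes them, are therefore no test. Neurod1, which is also a cortical gene, was lower (-1.16 ± 0.30, adjusted p = 0.00698), and Fat2 was not well above background on any of the 18 arrays. Of 8 tested Purkinje cell markers 4 were called higher, led by Ppp1r17 (2.88 ± 0.29), and 2 lower, Itpr1 (-1.89 ± 0.21) and Calb1 (-0.55 ± 0.11), which cortical neurons express too. The median was 0.78.

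Hindbrain genes were mostly high under the brainstem label. Of 18 listed, 16 passed the filter, and 15 of these were called higher in WT brainstem than in WT cortex. The median was 5.08 as measured and 3.99 with 11 genes at their bounds. Hoxb5, a patterning gene of the caudal hindbrain, was at least 222-fold and the serotonin transporter Slc6a4 at least 86.5-fold higher. Of 11 midbrain genes listed, 10 were on the array and 6 passed the filter. All 6 were called higher, with Gata3 at least 92.9-fold and Foxa2 at least 42.8-fold higher. The share over all genes was 19.1%. On no WT cortex array were 11 of the hindbrain and 2 of the midbrain genes well above background. Such genes pass the filter only through another group, such as brainstem, which favours a higher call. These counts are therefore no test of the label. Of 10 cortex genes 9 were called lower, among them Tbr1 (-5.55). Against WT hippocampus, 7 of the 10 cortex genes were called lower and 3 higher in WT brainstem, beside 18.5% and 23% of all genes. In bulk tissue, fewer cells of a type and less RNA per cell cannot be told apart.

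**Figure D3:**
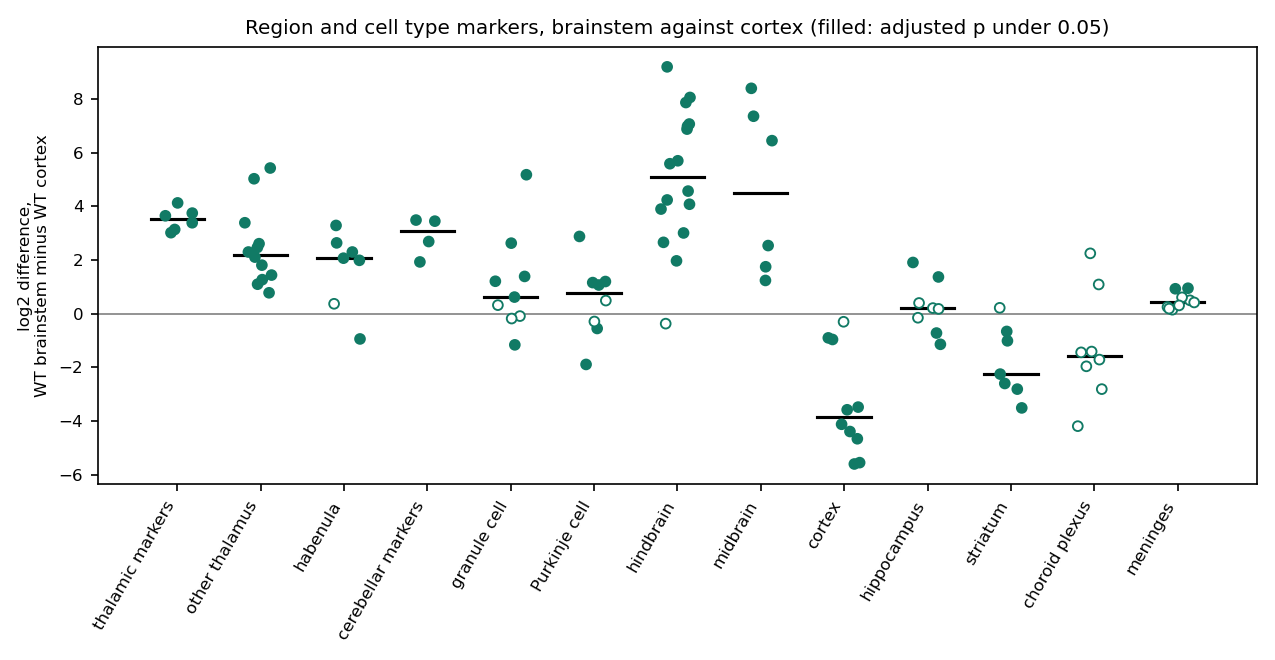
Log2 difference of WT brainstem from WT cortex (y axis) for each gene of 13 marker lists (x axis); bars are list medians, filled points were called (adjusted p under 0.05) and open points were not. Points for genes below background in cortex show the measured difference, not a bound. The thalamic, midbrain and meninges lists lie wholly above 0, whereas the granule cell and Purkinje cell lists lie on both sides of it.

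Between KO and WT mice, 0 of the 10 members were called in brainstem, hippocampus or cortex by limma, and 0 in the average over the regions. The background was 0.0309% of all genes in brainstem, 0.0176% in hippocampus, 0.0309% in cortex and 0.0529% in the average. At an unadjusted p under 0.05 there was 1 member in brainstem, 0 in hippocampus, 2 in cortex and 2 in the average, beside 2.96%, 1.33%, 2.19% and 6.95% of all genes in that order. The median difference in brainstem was -0.055 for the thalamic and -0.14 for the cerebellar genes, beside 0.0023 for all genes tested. In hippocampus it was -0.16 and 0.062, beside 0.022, and in cortex -0.26 and 0.0025, beside 0.0014. In brainstem, the 95% interval of KO minus WT reached at most 0.78 upwards (Zic1) and -1.19 downwards (Crtam). For the thalamic genes it lay within -0.69 and 0.67, and for Slitrk6 within -0.28 and 0.36.

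The thalamic genes varied little between brainstem arrays. Their mean level was between 1.92 and 1.98 on the 3 KO arrays and between 1.98 and 2.01 on the 3 WT arrays, and the SD of a gene was 0.059 to 0.30 in KO and 0.059 to 0.12 in WT brainstem. Tnnt1 was the member whose KO and WT brainstem arrays did not overlap, with all 3 KO arrays lower (-0.25 ± 0.16, adjusted p = 1). The KO arrays all lay below the WT arrays in 3.03% of all genes. Within slides the Tnnt1 difference was -0.19 on slide 1, with 2 arrays of each genotype, and -0.37 on slide 2, with 1 of each. Tcf7l2 and Slitrk6 were highest on KO replicate 3. Slitrk6 (0.044 ± 0.15) turned to -0.056 without that array, and the 3 probes of Tcf7l2 gave 0.17, -0.12 and -0.00089 for KO minus WT.

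The mean of the cerebellar members was less even, but not each gene. In WT brainstem the SD was 0.54 for Crtam, against 0.11 for En2, 0.051 for Cbln1 and 0.078 for Zic1. In KO brainstem the SD of a cerebellar gene was 0.034 to 0.24. The mean level of these members was between 1.12 and 1.33 on the KO arrays and between 1.28 and 1.48 on the WT arrays. Crtam differed most, by -0.66 ± 0.25 (unadjusted p = 0.0186, adjusted p = 1 in limma), with overlapping groups. On slide 1 the difference was -0.46 and on slide 2 it was -1.06, and leaving out 1 array moved it between -0.95, without WT replicate 1, and -0.42, without WT replicate 3. En2 (-0.15 ± 0.17), Cbln1 (-0.12 ± 0.28) and Zic1 (0.11 ± 0.31) differed by less than their errors, and Zic1 turned to -0.026 without KO replicate 3.

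Some other cerebellar genes also varied among the brainstem arrays. Gabra6 had -4.12, -5.32 and -3.28 on the KO arrays and -3.57, -2.58 and -2.24 on the WT arrays. Cbln3 had -7.81, -6.83 and -6.63 on the KO arrays, none of them well above background, and -6.0, -5.54 and -5.17 on the WT arrays, all 3 well above it. Pcp2, the Purkinje cell gene, had -1.08, -1.40 and -1.0 on the KO arrays and -1.47, -0.73 and -0.24 on the WT arrays. In all 4 genes WT replicate 1 was the lowest and WT replicate 3 the highest WT array. These 3 genes do not stand for their lists: KO minus WT had a median of -0.078 over the granule cell list, where 2 of 9 were positive (Zic2 0.28 and Zic4 0.077), and of -0.11 over the Purkinje cell list, where 3 of 8 were positive, up to 0.25 for Itpr1. The KO difference was -1.44 ± 0.76 for Gabra6, -0.35 ± 0.29 for Pcp2 and at least 1.64-fold lower for Cbln3 (unadjusted p = 0.0019 in limma), each with an adjusted p of 1. Cbln3 passed the filter through WT brainstem alone, which favours a lower KO value, so its difference is no test. Over the whole lists, 7 to 8 of 9 granule cell markers were above background on a KO array and 9 of 9 on each WT array, and the mean level was -2.87 to -2.62 in KO and -2.58 to -2.26 in WT brainstem. Cbln3 is in this count and mean, so no KO array could reach 9, and the comparison is no test. The count of 7 was on KO replicate 1, whose share of spots well above background, 63.7%, was the lowest of all arrays. Purkinje cell markers had a mean of -0.29 to -0.047 in KO and -0.29 to 0.097 in WT brainstem. The part of these cells in the difference of Crtam was not tested.

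**Figure D4:**
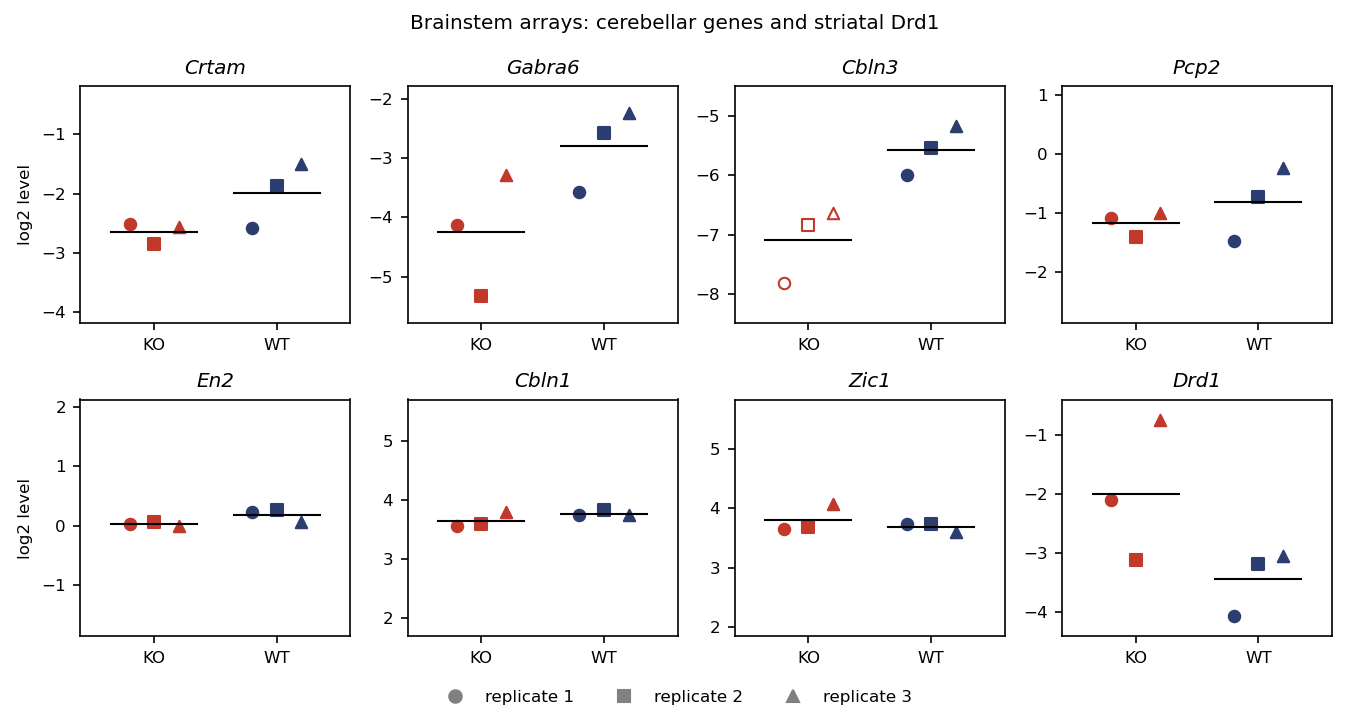
Levels (y axis, log2 relative to the array's 75th percentile) on the 3 KO (red) and 3 WT (blue) brainstem arrays for cerebellar genes and for the striatal gene Drd1; every panel spans the same 4 log2 units, shapes give the replicate, bars are means, and open symbols mark a group with no array well above background. Crtam, Gabra6, Cbln3 and Pcp2 vary between arrays and share their order among WT replicates, while En2, Cbln1 and Zic1 are nearly level.

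In cortex, Gbx2 and Slitrk6 were lower on all 3 KO arrays than on any WT array, -0.91 ± 0.32 and -0.40 ± 0.15 (unadjusted p = 0.0130 and 0.0169, adjusted p = 1 for both in limma). The KO arrays all lay below the WT arrays in 3.1% of all genes there. The Gbx2 levels were near background, and with another background correction its difference was -0.13. KO replicate 3 was the lowest cortex array for Gbx2, Slitrk6 and Prkcd as well as for En2, Zic1 and Crtam. In hippocampus Slitrk6 was again lower on all 3 KO arrays (-0.27 ± 0.15, adjusted p = 1), beside 2.7% of all genes with that order, and Zic1 had the largest difference (0.52 ± 0.31, adjusted p = 1). Whether the KO effect differed between regions was tested for the 3 pairs of regions: 0 of 10 members and 0 of all genes (0%) were called by limma, with 0 members and 189 to 222 genes at an unadjusted p under 0.05 (0.882% for brainstem minus cortex, 0.979% for brainstem minus hippocampus and 0.834% for hippocampus minus cortex). The largest differences of the effect were 0.89 ± 0.45 for Gbx2 and -0.70 ± 0.35 for Crtam, both brainstem minus cortex (unadjusted p = 0.0672 and 0.0653, adjusted p = 1).

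**Figure D5:**
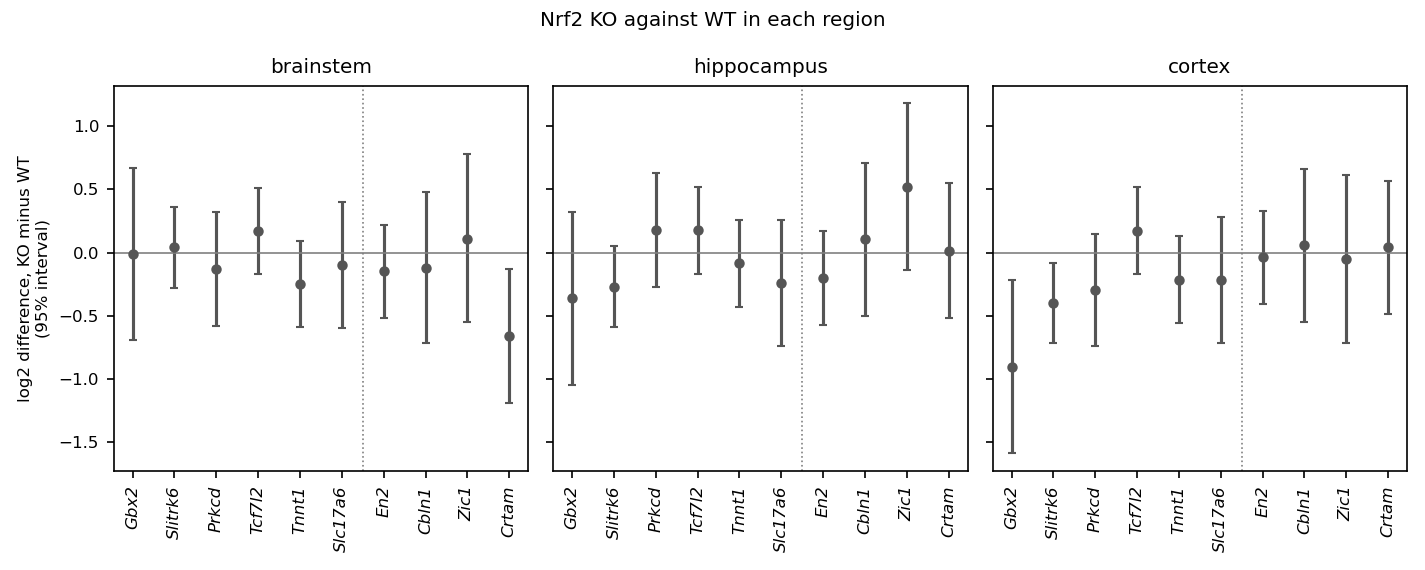
KO minus WT log2 difference with its 95% interval for each gene in brainstem, hippocampus and cortex; thalamic genes stand left of the dotted line and cerebellar genes right of it. Of the 30 intervals, those of Crtam in brainstem and of Gbx2 and Slitrk6 in cortex leave out 0, and none of these genes was called after adjustment.

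For each member, the 3 genes with the most similar pattern were found by the root mean square difference of levels, each centred on its own mean, over the 18 arrays. Tcf7l2 was closest to Rab37 (0.224 log2 units), which was also second for Slitrk6 (0.316) after Sncg, the gamma-synuclein gene (0.239). Tnnt1 (0.245) and Slc17a6 (0.265) both had Patj, a tight junction protein, among their nearest, and both had Klhl1 as well (0.297 for Tnnt1 and 0.314 for Slc17a6), while Spp1, osteopontin, was nearest to Slc17a6 (0.246). Prkcd and Crtam shared Sh3bgr (0.342 and 0.403), with angiotensinogen, Agt, nearest to Prkcd (0.339) and Sytl4 nearest to Crtam (0.369). En2 was nearest to Nkx6-1, a hindbrain and midbrain homeobox gene (0.271), Cbln1 to the nicotinic receptor subunit Chrna4 (0.29), Zic1 to Casz1 (0.318) and Gbx2 to Krt25 (0.467), the loosest match. All of these were higher in WT brainstem than in WT cortex, as measured, by 2.05 for Casz1 up to 4.28 for Krt25. The arrays share their regions, so that likeness over 18 arrays is mostly likeness over 3 regions.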

How the data were processed

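RNA of 18 samples was measured on 1-colour Agilent arrays. Linear amplification and Cy3 labelling are given per the labels. Spots were quantified, per the file headers, with Feature Extraction 10.7.3.1, whose processed intensity is background-subtracted and detrended within the array, without scaling between arrays, and which marks spots well above background by 1 (other values 0). A deposited series table repeats this intensity. In it 11 columns matched the array of their title and 7 matched another array, so the scanner files were used and the table was only an alternative.

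From these files, control spots and outlier spots (47 to 266 per array) were left out and log2 was taken of each spot. The log2 values of a probe's spots were then averaged and the array's 75th percentile (636 to 1102 as intensity) subtracted. A probe was kept where every one of the 3 arrays of some group had it well above background, 30066 of 41174. Symbols came from RefSeq by the probe's identifier: 26690 probes had 1 and 14484 none. A gene was read from its brightest probe by mean, or per identifier where no symbol matched, giving 22671 genes. Per the file headers the build was mm9 and the RefSeq table's is GRCm38.p6, so no gene coordinates are given. limma 3.58.1 in R 4.3.3 fitted the 6 group means to the 18 arrays, with 12 residual degrees of freedom and 2.34 from the prior, and 13 comparisons were tested two-sided, with Benjamini-Hochberg adjustment over all genes. For a group with 0 arrays above background, "at least" sets each array to the higher of its lowest signal among probes well above background and the measured one.

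KO and WT arrays of a region were balanced over slides 1 to 5, and were scanned on 1 day. Cortex shared no slide with brainstem or with hippocampus, so that slide and region cannot be told apart in either comparison. KO and WT arrays of a region with the same number deviated together (r = 0.24 to 0.62 in 9 pairs), which was taken as pairing. All 9 pairs also shared a slide. Arrays of the same number from different regions of a genotype had r from -0.05 to 0.71 in 18 pairs. Where both region and genotype differed, arrays of the same number had r from 0.01 to 0.64 in 18 pairs. For unlike numbers from different regions, r ran from -0.56 to 0.29 within a genotype and from -0.53 to 0.31 across genotypes. The main tests and their errors used no block, and the number was a block only in an alternative fit. The members and lists were chosen with earlier results of these data known. All members are described. Of each other list, the rule named the 2 genes with the largest called difference in each direction between WT brainstem and WT cortex and the one with the smallest p between KO and WT brainstem; Pcp2, Fat2, Cd3g, Cd8a, Ttr and the extra bounds were chosen after their values were seen. Some genes this rule names are not reported here. Of the genes with the smallest p between KO and WT brainstem, Ramp3 (-0.22), Nwd2 (-0.23), Car8 (-0.31), Hoxd3 (-0.40), Sox14 (-0.18), Wfs1 (0.24), Clic6 (0.59) and Aldh1a2 (-0.39) were not called. The fit was tested on simulated data: of 100 genes changed by 1 log2 unit between KO and WT brainstem 62 were recovered, and 97 of 100 changed by 2, with 18 false calls, 10.2% of the calls made.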

Additional observations from a re-analysis of the deposited data

How the results depend on the processing

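All 10 members were called higher in brainstem than in cortex and hippocampus, in KO and in WT mice, and 0 were called between KO and WT, under each alternative: another background correction (normexp on the median signals, chosen after seeing that the files hold no mean signal), quantile normalization, no filter on dim probes, the mean of a gene's probes, a trended robust variance, slide or replicate number as a block, the deposited table, and leaving out each array in turn. Between regions, slide was only a random block. Cortex shared no slide with the other regions, so that fit cannot separate slide from region there. Some columns of the deposited table hold an array of another region or genotype, so its 0 members called between KO and WT is no support. The fit with the replicate number as a block changed no call between KO and WT: the count of members called stayed at 0, and Crtam in brainstem was -0.66 (adjusted p = 0.731). The count of members called between hippocampus and cortex was 3 in KO and 3 in WT mice with normexp, 3 in WT mice with slide as a random block, 4 to 6 with the other normalization, filter, probe and variance settings and the number as a random block, and 0 in both genotypes by the deposited table, in which 7 of 18 columns hold another array. Leaving out 1 array gave 3 to 5 in KO and 1 to 5 in WT mice. By the table, KO hippocampus minus KO cortex turned to -0.21 for Slitrk6, -0.018 for Tcf7l2, -0.30 for En2 and 0.22 for Cbln1. Without 1 array, hippocampus minus cortex lay between -0.023 and 0.18 for Tcf7l2 in KO mice, and between -0.015 and 0.17 for Tcf7l2 and -0.69 and 0.018 for Cbln1 in WT mice. KO minus WT in brainstem lay between -0.069 and 0.051 for Gbx2, -0.056 and 0.15 for Slitrk6 and -0.026 and 0.19 for Zic1. The cause was not tested. In cortex, KO minus WT ranged from -0.90 to -0.13 for Gbx2 and from -0.40 to -0.003 for Slitrk6 over the alternatives. These ranges include the deposited table, whose column for KO cortex replicate 3 holds WT hippocampus replicate 1. They therefore mix the processing with a change of array. Leaving out 1 array gave -1.2 to -0.54 for Gbx2 and -0.55 to -0.2 for Slitrk6. Over all genes, the number called between KO and WT was 7 in brainstem, 4 in hippocampus and 7 in cortex, and it was 4 in brainstem with normexp, 2 in hippocampus with the replicate block and 0 in each region by the deposited table. Gbx2 outside brainstem, near background, is limited by its signal.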

Other observations

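Striatal markers varied between the brainstem arrays, and their mean was highest on KO replicate 3. Drd1, the dopamine receptor of striatal neurons, had -2.11, -3.12 and -0.75 on the KO arrays and -4.06, -3.18 and -3.05 on the WT arrays (KO minus WT 1.43 ± 0.49, adjusted p = 1 in limma). The mean level of 7 striatal markers was -0.73 to 0.61 in KO and -0.86 to -0.60 in WT brainstem. Ttr, the choroid plexus transthyretin gene, had -3.71, -4.70 and 2.03 on the KO arrays and -4.53, -4.99 and 0.061 on the WT arrays, so replicate 3 was the highest in both genotypes. Tcf7l2, Slitrk6 and Zic1 were also highest on KO replicate 3, whereas Gbx2, Prkcd, Tnnt1 and En2 were lowest there among the brainstem arrays.

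Of 8 hippocampal markers, 2 were called higher in WT brainstem than in WT cortex, C1ql2 (1.91) and Prox1 (1.37), genes of dentate granule cells. Lower were 2, among them Wfs1 (-1.14). All 8 were called lower in WT brainstem than in WT hippocampus. Of 9 tested markers of the meninges, 2 were called higher than in WT cortex, Col1a2 (0.95) and Dcn (0.93). Against WT hippocampus, 6 of the 9 were called higher and 0 lower in WT brainstem, with a median of 0.99. Beside these stood 23% and 18.5% of all genes. Over all genes 19.1% were called higher and 16.6% lower than in WT cortex, so the counts against cortex were near these shares. Of 8 choroid plexus markers 0 were called between WT brainstem and WT cortex, although their differences ran from -4.19 to 2.25 with a median of -1.57.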
